A study of Mus musculus with 3 samples.

Results

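Macrophages and microglia are tissue phagocytes of the myeloid lineage, and many of the genes that mark them encode receptors, complement, lysosomal proteins and the signalling partners of those receptors. Here 47 such genes were followed in 3 RNA-seq libraries of mouse embryonic fibroblasts (MEFs). The list was put together with values of these libraries already known, in particular that clone 2 held more RNA from several of these genes than clones 1 and 3. The difference between clones within the list is therefore a description, with no test. Of the 47 genes, 45 had a row in the table of 21782 genes, and Adgre1 and Spi1 were not analysed here.

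The 3 libraries were labelled as wild-type (WT) and numbered 1 to 3, and the methods of the study name 3 MEF clones. Each library is therefore taken here as 1 clone, numbered as in the labels, although the labels do not name clones. MEFs are primary fibroblasts grown out of mouse embryos, here at embryonic day 12.5, and were cultured in DMEM with 20% FBS and harvested while cycling asynchronously. The larger study was about cohesin, and these untreated cells carry none of its deletions. Whether myeloid cells were removed is not given in the sources used here. Because a clone has no second library, its own spread could not be measured. Standard deviations below are over the 3 clones, and intervals of a ratio cover counting error only, since they rest on 1 library for each clone. The reads carried no molecular identifiers, so PCR copies of 1 molecule could not be told apart and even the counting error may be understated.

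Macrophages depend on signalling through the receptor CSF1R, which binds the growth factors CSF1 and IL34, and their identity is set largely by the transcription factor PU.1, which binds purine-rich DNA with a GGAA core. They take up debris and antibody-coated particles through Fc, scavenger and phosphatidylserine receptors, several of which signal through adaptors with an ITAM motif and the kinase SYK. Microglia, the macrophages of the brain, descend from yolk sac precursors, and most other tissue macrophages of the embryo from yolk sac and fetal liver precursors. Microglia and many other tissue macrophages secrete the complement protein C1q.

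The label of the cells was checked first. All 11 fibroblast markers examined averaged at least 1 CPM (counts divided by the library size and scaled to the same total), and Col1a1, a chain of type I collagen, had 796323, 584920 and 635170 counts in clones 1, 2 and 3. The 11 markers summed to 57000.2, 47437 and 45981 CPM. Col1a1 and Col1a2 were the largest, with means of 27713 and 14379.5 CPM, so type I collagen RNA was abundant in every library. The markers were uneven, since Dcn had 10.4, 7.67 and 5.15 CPM and Lum had 3.38, 1.15 and 1.54. Libraries held 25261357, 22594316 and 24791198 counts, and 1 count was worth 0.0402, 0.0443 and 0.0396 CPM. The 9 lymphocyte markers summed to at most 1.06 CPM in any clone, with Cd3e, Pax5, Ncr1 and Rag1 at 0, and none of 5 erythroid markers exceeded 3 counts. Of 8 granulocyte and mast cell markers only Cma1 exceeded 3 counts in some clone.

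The starts of these genes are given before their levels, because the purine-rich letters read by PU.1 and other ETS family factors can be searched for directly. RefSeq promoter windows (GRCm38.p6, 250 bases before to 50 after the start, 300 in all) were found for 34 members, with 46 windows. The letters AGGAAGT were searched on both strands. They lie inside GAGGAAGT and contain GGAAGT, so the searches overlap. The neighbouring genes C1qb and C1qc, on the minus strand, are shown whole because they held AGGAAGT and were among the members with the widest gap between clones. No window was found for C1qa. A wide gap did not go with the letters in every member. The windows of Lcp1 and Trem2, which were 6.88-fold and 5.54-fold above the higher other clone in clone 2, did not hold AGGAAGT. Capitals mark AGGAAGT or its reverse complement ACTTCCT, and the sequences read 5′ to 3′ along the gene. The C1qb window is chr4:136886151-136886450 and the C1qc window is chr4:136892865-136893164.
C1qb: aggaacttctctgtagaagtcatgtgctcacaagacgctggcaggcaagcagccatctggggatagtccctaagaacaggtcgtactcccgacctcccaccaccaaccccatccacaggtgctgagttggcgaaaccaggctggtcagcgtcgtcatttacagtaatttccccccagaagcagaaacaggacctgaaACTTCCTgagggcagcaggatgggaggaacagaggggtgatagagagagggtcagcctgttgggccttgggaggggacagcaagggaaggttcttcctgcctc
C1qc: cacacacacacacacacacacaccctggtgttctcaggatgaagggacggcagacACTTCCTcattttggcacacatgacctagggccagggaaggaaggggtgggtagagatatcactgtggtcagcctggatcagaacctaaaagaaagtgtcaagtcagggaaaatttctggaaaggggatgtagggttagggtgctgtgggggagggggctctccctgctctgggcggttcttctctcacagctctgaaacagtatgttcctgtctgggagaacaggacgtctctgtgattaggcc

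Stretches of 60 bases around the same letters are shown for 6 other members that stood at least 3-fold higher in clone 2, one or more from each of the lysosomal, scavenger, Fc receptor and pan-leukocyte groups. They are Lyz2 (minus strand, chr10:117282340-117282399), Mrc1 (plus strand, chr2:14229176-14229235), Fcgr1 (minus strand, chr3:96293998-96294057), Folr2 (minus strand, chr7:101857295-101857354), Ptprc (minus strand, chr1:138175386-138175445) and Cd53 (minus strand, chr3:106790111-106790170).
Lyz2: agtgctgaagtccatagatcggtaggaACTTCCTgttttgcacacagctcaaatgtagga
Mrc1: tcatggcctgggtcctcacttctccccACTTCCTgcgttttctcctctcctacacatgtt
Fcgr1: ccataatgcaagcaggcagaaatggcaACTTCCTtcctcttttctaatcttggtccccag
Folr2: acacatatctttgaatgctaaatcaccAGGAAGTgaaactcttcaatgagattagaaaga
Ptprc: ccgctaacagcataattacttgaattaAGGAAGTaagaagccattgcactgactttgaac
Cd53: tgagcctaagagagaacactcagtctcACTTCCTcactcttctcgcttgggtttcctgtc

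Counted by gene, AGGAAGT was in the windows of 11 of 34 members (32.4%), against 10.7% of 27025 genes with a window and 10.1% of the 8708 such genes at 1 CPM or more in every clone. GGAAGT was in 18 members (52.9%), against 26.5% of all genes and 32.2% of expressed genes. GAGGAA was in 16 members (47.1%), against 31.3% and 30.2%. The longest form, GAGGAAGT, was in 3 members (8.82%), C1qc, Cd53 and F13a1, against 3.69% and 3.56%. The members with AGGAAGT were 8 of the 22 members with a window that were at least 3-fold higher in clone 2, 1 of 4 (P2ry12) between 2 and 3-fold, 1 of 4 (Sall1) under 2-fold, and 1 of 4 (F13a1) among members too low to compare. The letters are a description of these windows. No binding was measured here, and a link between the letters and the difference between clones was not tested.

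Levels below are CPM on library sizes scaled by the trimmed mean of M values (TMM). A gene was called expressed in all clones at 1 CPM or more in every one, which held for 37 of the 45 members (82.2%) and 52.2% of all 21782 genes. In clones 1, 2 and 3 taken singly, 39, 41 and 38 members reached 1 CPM. Between clones 1 and 3 alone, 37 members reached it in both, so most of the list was detectable without clone 2. For the comparison of clones a gene had to average 1 CPM or more over them. This left 40 members and 11751 genes, and left out Aif1, Cd163, F13a1, Lyve1 and Timd4. Of the 40, P2ry12, Sall1 and Fcgr2b were under 1 CPM in at least 1 clone. P2ry12 and Fcgr2b averaged 0.919 and 0.999 CPM without clone 2, so they passed this filter only through that clone.

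**Figure D1:**
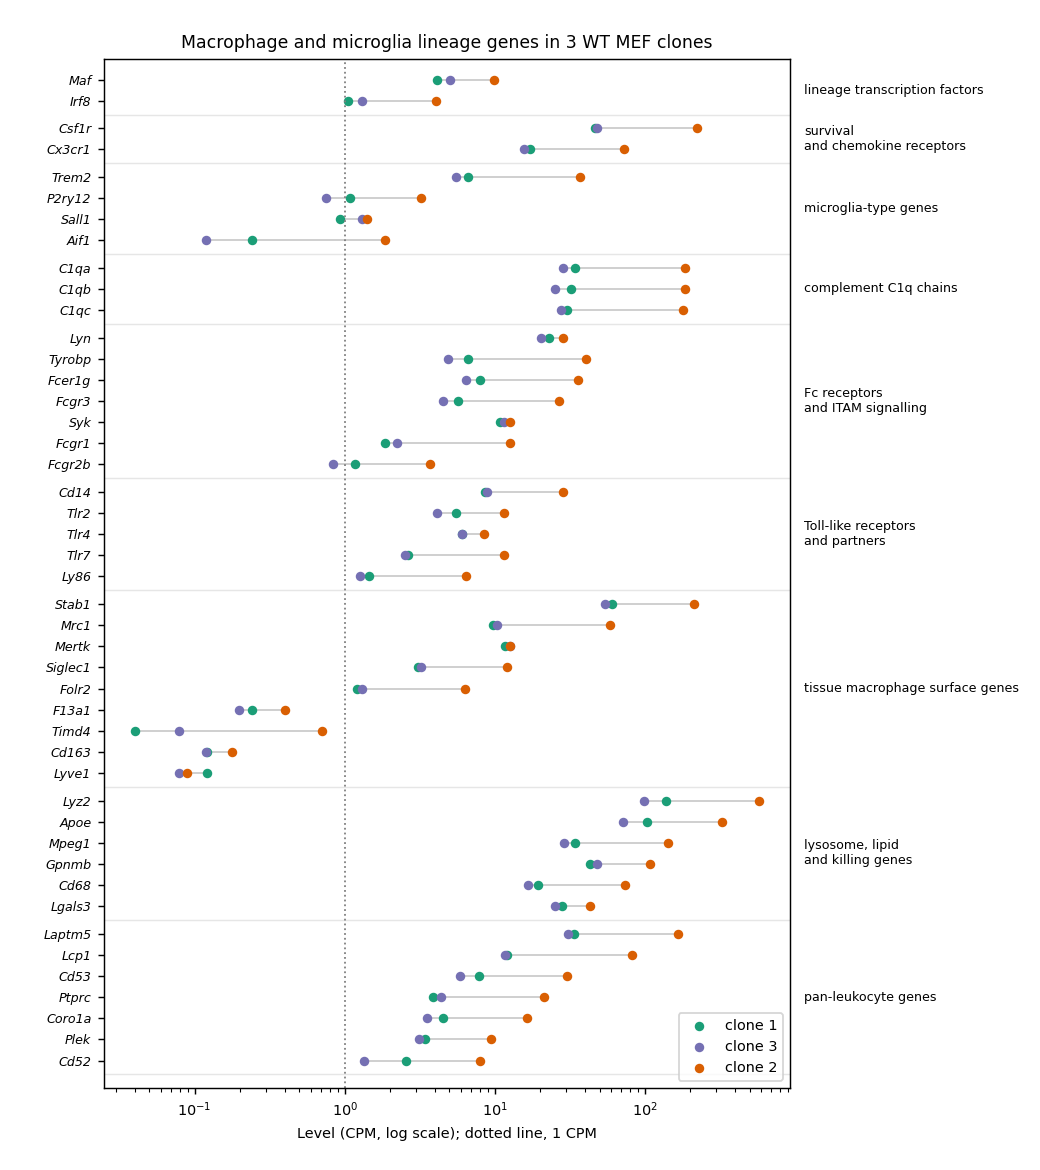
Level of each of the 45 measured members in the 3 WT MEF clones (x axis, CPM, log scale), grouped by role, with 1 point per clone and a line from the lowest to the highest clone and the dotted line at 1 CPM. Clone 2 was the highest in 39 of the 40 members averaging 1 CPM or more, while the points of Mertk and Syk lie close together.

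Clone 2 was at least 2-fold above the higher of the other clones in 33 of the 40 members (82.5%), against 2.44% of all 11751 genes. This is the contrast that chose the list, so the count describes it and supports nothing. Over all 45 measured members with no filter the count was 35. The added genes, Aif1 (6, 42 and 3 counts) and Timd4 (1, 16 and 2), were near the floor in clones 1 and 3. The share of all genes without a filter was not computed. No member was highest by that fold in clone 1 (0.425% of all genes) or in clone 3 (0.0425%). Clone 2 was the highest of the clones in 39 members, all but Mertk, against 35.1% of all genes, and at least 4-fold higher in 19 (47.5%), against 0.936%. Of the 287 genes at least 2-fold higher in clone 2, 33 were members (11.5%). The median member was 4.23-fold higher in clone 2 than in the mean of clones 1 and 3, with quartiles of 3.19 and 5.16. On the log2(CPM + 1) scale, which understates the change of low genes, the median difference was 1.85, against 0.00 over all genes.

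The members together took 0.0765% of all counts in clone 1 (95% Wilson interval 0.0754 to 0.0776), 0.304% in clone 2 (0.302 to 0.306) and 0.0678% in clone 3 (0.0668 to 0.0689), a mean of 0.149% ± 0.134 (SD, n = 3). Lyz2 alone held 18.1% of the list's counts and the first 5 genes held 49.2%. Without Apoe, Lgals3, Gpnmb and Lyz2, the first 3 of which many other cells express, the shares were 0.0458%, 0.198% and 0.0430%. In a bulk library, more cells of a type and more RNA per cell cannot be told apart.

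Clones 1 and 3 were alike across the list. Their ratio (clone 1 over clone 3) had a median of 1.11 and quartiles of 0.953 and 1.27, and 39 of the 40 members lay within 1.5-fold. The exception was Cd52, at 1.91. The counting interval of the ratio held 1 for 27 members, lay above 1 for 12 (among them Lyz2 and Apoe, at 1.40 and 1.43) and below 1 for Gpnmb alone. The intervals of clone 2 over both other clones lay above 1 in 37 of the 40, the exceptions being Sall1, Syk and Mertk. How many of all genes meet these bounds was not computed, so these counts cannot be called particular to the list. Among all genes, only 0.425% were 2-fold highest in clone 1 and 0.0425% in clone 3.

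**Figure D2:**
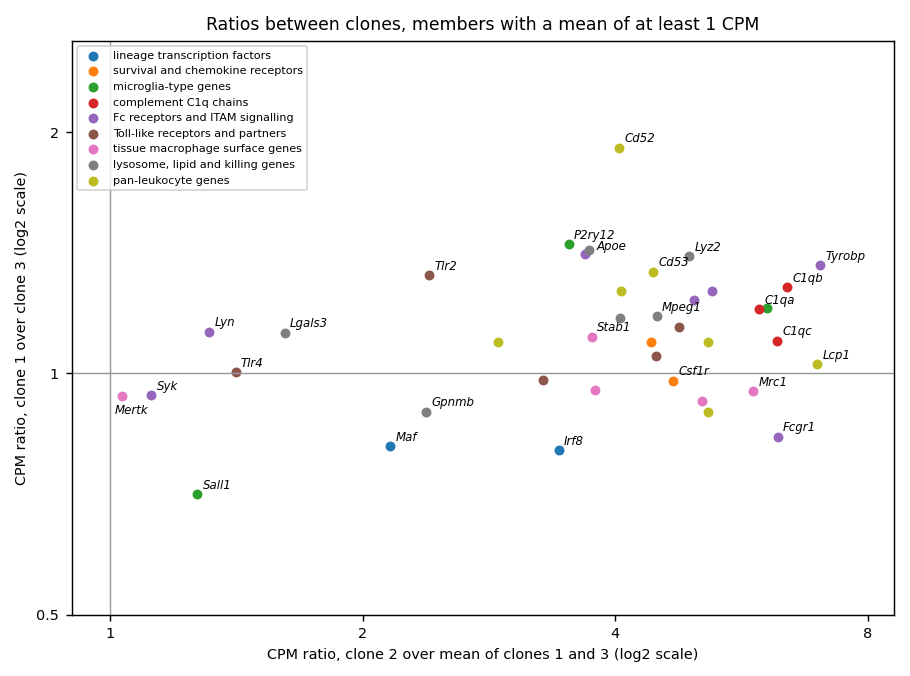
Ratio of clone 1 over clone 3 (y axis) against ratio of clone 2 over the mean of clones 1 and 3 (x axis), both of CPM on log2 scales, 1 point per member averaging 1 CPM or more, coloured by role. The x values run from 1.03 (Mertk) to 7.02 (Tyrobp), while the y values run from 0.709 (Sall1) to 1.91 (Cd52), with a median of 1.11.

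Other lists also differed between the clones. The 6 proliferation genes examined summed to 368, 723 and 609 CPM, lower in clone 1 than in clones 2 and 3, and none was 2-fold higher in clone 2. The summed fibroblast level, which rests mostly on collagen genes, was highest in clone 1 and similar in clones 2 and 3. Single markers went both ways. Pdgfra was highest in clone 2, at 11.8, 27.3 and 16.8 CPM, and Lum was highest in clone 1, at 3.38, 1.15 and 1.54. The part of either list in the result was not tested.

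Among the lineage transcription factors, Irf8, needed for monocyte and microglia development, was higher in clone 2. It had 26, 91 and 33 counts, or 1.05, 4.04 and 1.31 CPM, and clone 2 was 3.86-fold above clone 1 (interval 2.47 to 6.21) and 3.09-fold above clone 3 (2.05 to 4.75). Maf, a bZIP factor of tissue macrophages that other cell types also use, had 4.11, 9.89 and 5.07 CPM. Its 1.95-fold excess over the higher other clone placed it just under the fold of 2, with Tlr2 at 2.10 just above it. Spi1, which encodes PU.1, was not analysed here.

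The receptors that macrophages need for survival and position were both higher in clone 2. By mean level per kb of exon, Csf1r ranked 10 and Cx3cr1 ranked 17 of the 45 measured members. Csf1r had 1165, 5001 and 1209 counts, or 46.9, 222 and 47.9 CPM. Cx3cr1, the receptor for the chemokine fractalkine, had 431, 1647 and 400 counts, or 17.3, 73.0 and 15.8 CPM. In both genes clones 1 and 3 were within 1.10-fold, and clone 2 stood at least 4.21-fold above either. Csf1r carried a limit, since 17.1% of its 86-nt stretches were also found, within 2 mismatches, on the opposite-strand gene Hmgxb3.

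The ligands of these receptors did not follow them. Csf1 had 29610, 31260 and 29162 counts, a mean of 1244 ± 124 CPM (SD, n = 3), so the growth factor's RNA was abundant in all clones. The count ratio of Csf1r to Csf1 was 0.0393, 0.160 and 0.0415. Il34, the other CSF1R ligand, had 47, 23 and 28 counts. Cx3cl1, which encodes fractalkine, was lowest in clone 2, with 101, 66.8 and 84.5 CPM. The full ligand list also holds ligands of other receptors, among them C3, Mif, Gas6 and Pros1. None of its 7 genes averaging 1 CPM or more was 2-fold higher in clone 2, and their median log2 difference was 0.12.

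Microglia-type members were few and uneven. Trem2, a lipid-sensing receptor that signals through TYROBP, had 166, 834 and 140 counts, or 6.68, 37.0 and 5.54 CPM, and clone 2 exceeded both other clones by at least 5.54-fold. P2ry12, the ADP receptor of resting microglia, was low, with 27, 73 and 19 counts. Aif1, which encodes IBA1, had 6, 42 and 3 counts and did not reach a mean of 1 CPM. Sall1, a transcription factor of microglia and of embryonic limb and kidney, had 23, 32 and 33 counts, so clones 2 and 3 were level. Of the 10 further microglia genes examined, 6 averaged 1 CPM or more. Of these, only Fcrls, an Fc receptor-like gene, at 541, 1904 and 390 counts, and Gpr84, at 34, 144 and 25, were 2-fold higher in clone 2. Tmem119, which is also used in mesenchymal cells, had 75.1, 106 and 73.3 CPM and was not.

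The genes for the 3 chains of C1q, the recognition protein of the classical complement pathway, lie side by side on the minus strand of chromosome 4 (GRCm38, chr4:136880129-136898803). C1qa had 854, 4216 and 723 counts, C1qb had 805, 4181 and 638, and C1qc had 753, 4068 and 697. Their CPM were 34.4, 187 and 28.6 for C1qa, 32.4, 185 and 25.3 for C1qb, and 30.3, 180.4 and 27.6 for C1qc. Clone 2 was thus at least 5.44-fold above either other clone in each chain. The chains kept to one another within a library: C1qa over C1qb was 1.06, 1.01 and 1.13 in counts, and C1qc over C1qb was 0.935, 0.973 and 1.09.

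A list of complement and beta-2 integrin receptors was also highest in clone 2. All 6 of its genes averaging 1 CPM or more were at least 2-fold higher in clone 2, and their summed level was 59.9, 290.0 and 63.2 CPM. Itgam, the alpha chain of the integrin CR3, had 321, 1403 and 306 counts. Its partner Itgb2, the common beta-2 chain, had 227, 1139 and 190.

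All 5 Fc receptor and adaptor genes were at least 2-fold higher in clone 2, and the kinases Syk and Lyn were not. Fcgr1, the high-affinity IgG receptor, had 1.85, 12.7 and 2.22 CPM, from 46, 287 and 56 counts. Fcgr3, an activating IgG receptor, had 5.72, 26.7 and 4.51 CPM. Fcgr2b, the inhibitory one, had 1.17, 3.68 and 0.831 CPM, from only 29, 83 and 21 counts, and 22.6% of Fcgr3 and 15.1% of Fcgr2b stretches also occurred in other genes, each receptor in the other and Fcgr2b also in Cplx2 and Rab3c. The adaptor Tyrobp (DAP12) had 165, 911 and 123 counts, or 6.64, 40.4 and 4.87 CPM, and clone 2 was 6.08-fold above clone 1 (interval 5.15 to 7.22) and 8.30-fold above clone 3 (6.87 to 10.1). Fcer1g, the common gamma chain, had 8.01, 36.0 and 6.49 CPM.

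Syk, the kinase recruited by both adaptors, had 271, 285 and 294 counts, or 10.9, 12.6 and 11.6 CPM, and the intervals of clone 2 over clone 1 (0.978 to 1.37) and over clone 3 (0.919 to 1.28) included 1. Lyn, a Src family kinase, had 23.1, 28.6 and 20.5 CPM, so clone 2 was 1.24-fold above clone 1 (interval 1.10 to 1.39). Of Lyn's stretches, 31.0% also occurred in Gm11787 or Gm26857, the latter an overlapping gene on the opposite strand. Of 9 further partners of ITAM signalling averaging 1 CPM or more, 7 were at least 2-fold higher in clone 2, among them Vav1 (55, 227 and 49 counts), Inpp5d (92, 348 and 77) and Ptpn6 (63, 215 and 58). Plcg2 (243, 279 and 234) was not.

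Of the Toll-like receptors and their partners, 4 of 5 were 2-fold higher in clone 2. Tlr7, a sensor of single-stranded RNA, had 66, 261 and 64 counts. Cd14, the co-receptor for lipopolysaccharide, had 8.65, 28.7 and 8.83 CPM, and Ly86 (MD-1) had 1.45, 6.47 and 1.27. Tlr2, which senses bacterial lipoproteins, had 5.51, 11.6 and 4.16 CPM. Tlr4, the receptor that CD14 serves, had 150, 192 and 152 counts, so clone 2 was 1.41-fold above both other clones, with intervals of 1.13 to 1.76 and 1.14 to 1.76.

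**Figure D3:**
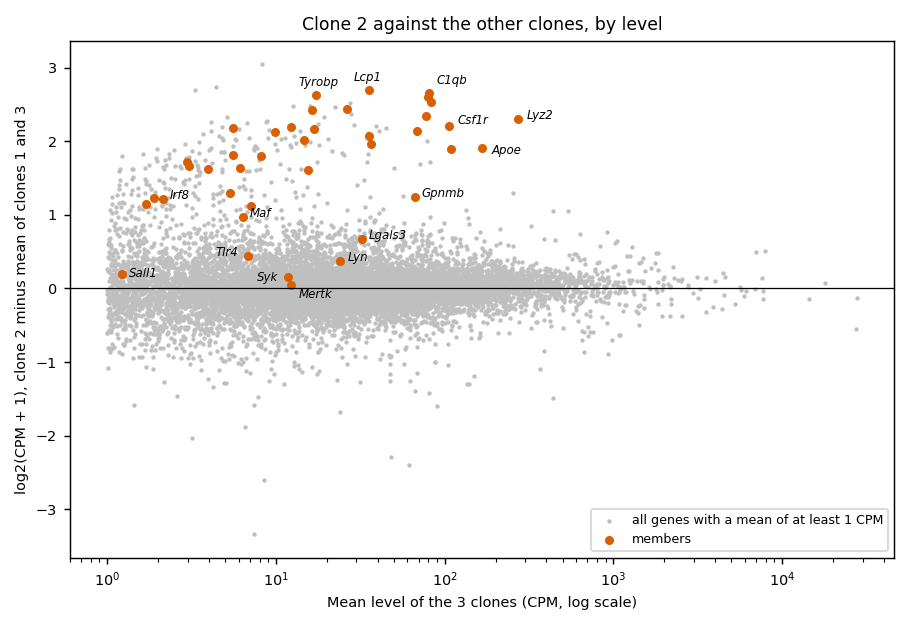
Difference of clone 2 from the mean of clones 1 and 3 (y axis, log2(CPM + 1)) against the mean level of the 3 clones (x axis, CPM, log scale), 1 grey point per gene averaging 1 CPM or more and 1 orange point per member. The members range from 0.04 (Mertk) to 2.70 (Lcp1), with a median of 1.85 against 0.00 over all genes.

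The surface genes of tissue macrophages split in the same way. Stab1, a scavenger receptor of tissue macrophages and sinusoidal endothelium, had 1494, 4836 and 1366 counts, or 60.1, 214 and 54.1 CPM. Mrc1, the mannose receptor CD206, had 243, 1322 and 261 counts, or 9.78, 58.6 and 10.3 CPM. Siglec1 (sialoadhesin) had 77, 271 and 82 counts, and Folr2, a folate receptor, had 30, 144 and 33. Each was at least 3.57-fold higher in clone 2, although Folr2 overlaps the opposite-strand gene Gm10602 over 63.1% of its exons. Mertk, a receptor for apoptotic cells that other cell types also carry, had 292, 283 and 317 counts, or 11.8, 12.6 and 12.6 CPM. Among the 40 members averaging 1 CPM or more it was the only one not highest in clone 2.

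The other 4 surface genes were barely detected. Lyve1, a hyaluronan receptor, had 3, 2 and 2 counts and Cd163, the haemoglobin scavenger receptor, had 3, 4 and 3, at or near the floor of 3 counts (0.121, 0.133 and 0.119 CPM), so no fold is given. F13a1, a coagulation factor chain found in macrophages, had 6, 9 and 5 counts. Timd4, a phosphatidylserine receptor, had 1, 16 and 2. At 16 counts the level of Timd4 in clone 2 was 0.710 CPM.

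Lysosomal, lipid and killing genes had the highest summed level of the roles, at 366, 1273 and 289.7 CPM. Lyz2, lysozyme of myeloid cells, had 3433, 13074 and 2490 counts, or 138, 579.8 and 98.6 CPM. Because 34.9% of its stretches also occur in Lyz1, reads could have been divided between them, and Lyz1 counts were 0.141, 0.125 and 0.133 of those of Lyz2. Apoe, an apolipoprotein of macrophages and many other cells, had 103, 326 and 72.2 CPM. Mpeg1 (perforin-2) had 34.3, 142 and 29.1 CPM, and Cd68, a lysosomal glycoprotein, had 19.6, 73.5 and 16.7.

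Gpnmb and Lgals3 moved less. Gpnmb, a glycoprotein of lipid-laden macrophages and other cells, had 42.9, 108 and 47.9 CPM, and clone 2 was 2.26-fold above clone 3 (interval 2.11 to 2.43). Lgals3, galectin-3, had 28.3, 43.2 and 25.2 CPM, with clone 2 1.53-fold above clone 1 (1.38 to 1.68). Of 12 lysosomal cathepsins and related proteases averaging 1 CPM or more, only Ctss (426, 1880 and 437 counts) and Ctsc (993, 2110 and 945) were 2-fold higher in clone 2, and the median log2 difference of the 12 was 0.03. Of 6 subunits of the phagocyte oxidase, 5 were 2-fold higher, and Cyba, the subunit that other cells share, had 89.8, 119 and 85.5 CPM and was not.

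All 7 pan-leukocyte members were at least 2.77-fold higher in clone 2 than in the higher other clone. Ptprc, which encodes the common leukocyte antigen CD45, had 97, 480 and 110 counts, or 3.90, 21.3 and 4.36 CPM. Lcp1, an actin bundler of blood cells, had 298, 1861 and 296 counts, or 82.5 CPM in clone 2 and 11.7 CPM in clone 3, and clone 2 was 6.88-fold above clone 1 (interval 6.09 to 7.80). Laptm5, a lysosomal membrane protein of blood cells, had 33.8, 167 and 30.9 CPM. Cd53, a tetraspanin, had 7.85, 30.4 and 5.86 CPM, and Cd52, a small surface glycoprotein, had 2.58, 7.94 and 1.35. Coro1a, an actin-binding coronin, and Plek, pleckstrin, had 370 and 214 counts in clone 2, against at most 112 and 85 in the other clones. Of Lcp1's stretches, 18.3% were shared with other annotated genes.

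Between genes, levels were compared per length, as CPM per kb of annotated exon (GENCODE M21, GRCm38). The list ranged from 207 ± 203 CPM per kb for Lyz2 (SD, n = 3), first in every clone, to 0.0254 for Cd163. After Lyz2 came C1qa (80.1), Apoe (78.2), C1qb (74.5), C1qc (41.1), Cd68 (29.1) and Tyrobp (25.9). These means are weighted towards clone 2. In clones 1 and 3 Apoe was second, at 48.2 and 33.8 CPM per kb, against 33.1 and 27.5 for C1qa, and Tyrobp ranked 8 and 12. The median of the 37 members at 1 CPM or more in every clone was 3.29, 9.20 and 2.89 CPM per kb in clones 1, 2 and 3, against 5.43, 5.51 and 5.47 for 11002 genes past the same filter, so it lay above that of all genes in clone 2 and below it in the other clones. The SDs of the first 10 genes were of the same size as their means. They include the shared rise in clone 2, so they do not measure how sure the order within a clone is. Per kb of annotated exon, C1qb, for example, was above C1qc in every clone, at 29.8, 170.4 and 23.2 against 15.7, 93.4 and 14.3. Dividing instead by the length of 1 transcript per gene, that with the longest coding region, kept 9 of the first 10 genes, with Lgals3 in place of Csf1r. The order within them was less stable. On that length the means of C1qb and C1qc were 74.5 and 66.0 CPM per kb, so the width of their gap depends on the length used. Apoe, at 119, then stood above C1qa, at 80.1.

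**Figure D4:**
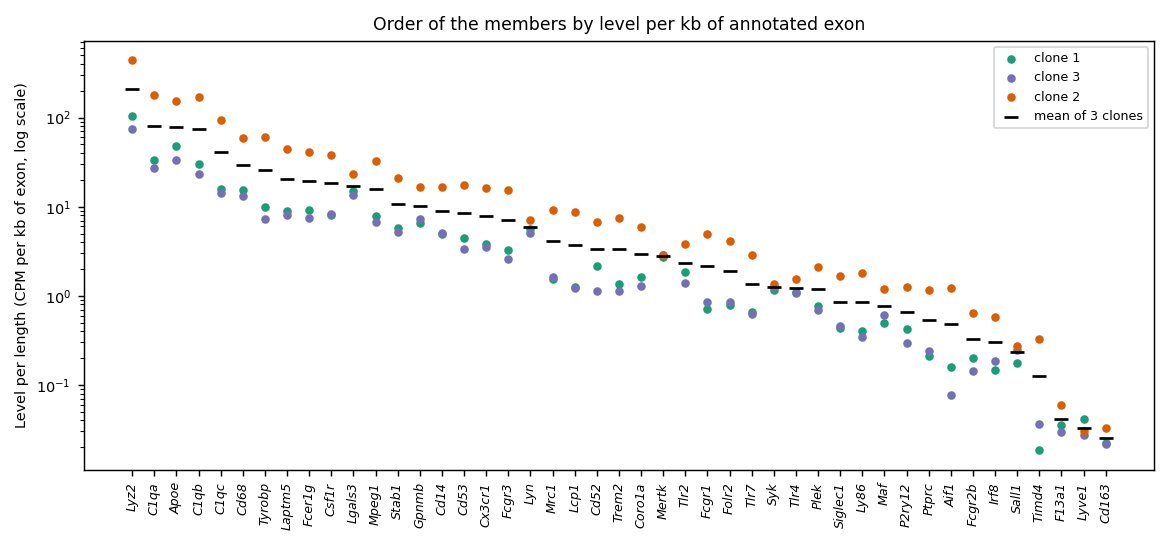
Level per length of the 45 measured members (y axis, CPM per kb of annotated exon, log scale) in the order of their mean, with 1 point per clone and a bar for the mean of the 3 clones. Lyz2 was first at 207 CPM per kb and Cd163 last at 0.0254, and clone 2 lay above the other points for all members but Mertk and Lyve1.

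Other lists held genes of neighbouring lineages, several of them too low to compare. Of 12 further tissue macrophage genes averaging 1 CPM or more, 9 were 2-fold higher in clone 2, and Pf4, a chemokine of platelets and some macrophages, went from 31 and 57 counts in clones 1 and 3 to 481. Of 7 monocyte genes, 3 averaged 1 CPM or more (Plac8, Fn1 and Nr4a1), and none of the 3 was 2-fold higher in clone 2. Fn1 averaged 27279 CPM, near the 27713 of the fibroblast gene Col1a1, so its RNA cannot be assigned to monocytes here. Below that level, Ccr2 had 1, 0 and 0 counts and Ly6c2 had 0, 0 and 1, while Treml4 had 0, 18 and 1. None of the 4 osteoclast genes above the filter was 2-fold higher in clone 2, and Ocstamp, Dcstamp and Calcr had at most 2 counts in any clone. Of 6 MHC class II genes only 1 passed the filter, and their summed level was 6.00, 4.04 and 4.51 CPM, with H2-Aa at 0. H2-DMa carried most of that sum, at 4.95, 2.53 and 3.56 CPM, while Cd74, the invariant chain, had 16, 33 and 16 counts. The megakaryocyte list, at 11.0, 14.6 and 10.9 CPM in sum, held no gene 2-fold higher in clone 2.

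**Figure D5:**
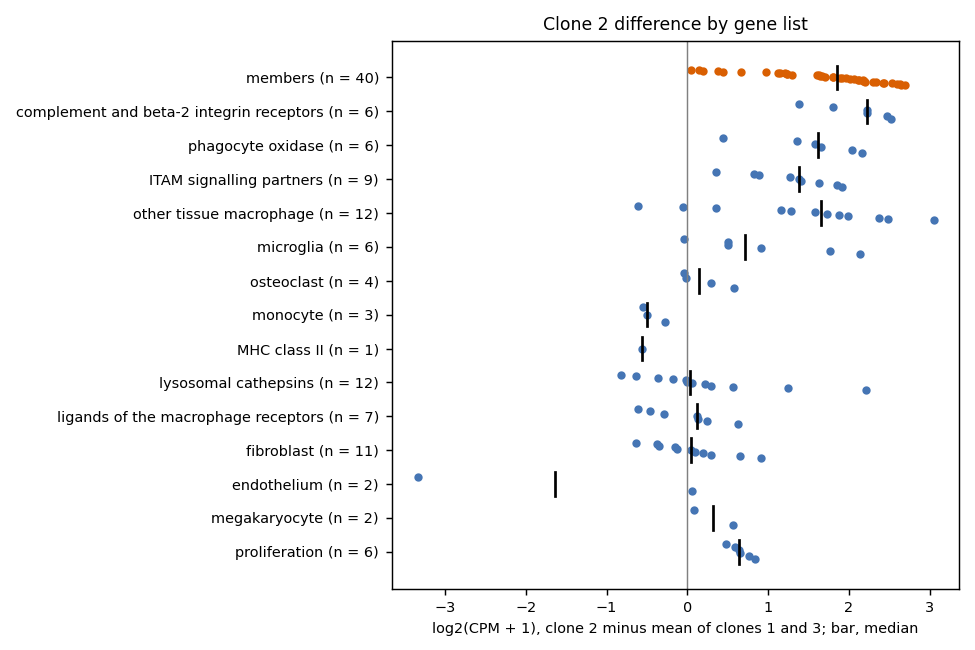
Difference of clone 2 from the mean of clones 1 and 3 (x axis, log2(CPM + 1)) for the members and for each further list, 1 point per gene averaging 1 CPM or more, with the median as a bar and the number of genes in brackets. Medians were 2.23 for complement and beta-2 integrin receptors and 1.85 for the members, against 0.05 for fibroblast and 0.03 for cathepsin genes.

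Outside the members, 8366 genes averaged 10 CPM or more over the 3 clones, clone 2 included, and 54 were 2-fold and 18 were 4-fold higher in clone 2. The 10 with the widest fold over the higher other clone were C5ar1 (6.11), Ms4a7 (5.84), Cd72 (5.68), Itgb2 (5.53), Syt13 (5.42), Msr1 (5.07), Ctss (4.82), Itgam (4.82), Cybb (4.71) and Cd84 (4.68). Without clone 2, only C5ar1, Msr1, Ctss and Itgam of these 10 averaged 10 CPM or more. The others passed the filter only through the clone where they were high. C5ar1 (the receptor for complement C5a), Ms4a7, Cd72, Msr1 (a scavenger receptor), Cybb (an oxidase subunit) and Cd84 are known from blood cells, and Syt13 is a synaptotagmin. The 5 genes whose deviations from their own mean lay nearest to the members' median deviations (-0.55, 1.23 and -0.67 on the log2 scale in clones 1, 2 and 3) were Abcc3, Cxcl16, Ccl9, Sepp1 and Tlr13. Abcc3, a transporter, was nearest, at a distance of 0.0610 over the 3 clones, with 154, 567 and 143 counts. All 5 averaged under 10 CPM without clone 2, from 5.71 (Cxcl16) to 9.49 (Sepp1), so they too passed the filter only through it.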

How the data were processed

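PolyA+ RNA of 3 WT MEF clones was sequenced as single-end reads of 86 nt. The authors' aligner was TopHat2 (2.0.0), run on Bowtie (0.12.7) with SAMtools (0.1.16). Up to 2 mismatches and 5 multiple hits were accepted for a read. Genes were counted with HTSeq, whose version, annotation and strand setting are not given in the sources used here. The methods name mm10 and the submitters' processing notes mm9, so gene positions and lengths come from GENCODE M21 (GRCm38), matched by symbol, and were not used for counting. The deposited values were raw counts per gene.

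Counts were scaled with edgeR 4.0.16 (TMM) in R 4.3.3, with DESeq2 1.42.0 size factors and total counts as alternatives. The clones were compared among genes averaging 1 CPM or more, and a pseudocount of 1 CPM was used on the log2 scale. Ratio intervals are exact (Clopper-Pearson) and shares have Wilson intervals, both at 95% and for counting error only. With 1 library for each clone no test was made. Calculations were tested on simulated data. Members and lists were chosen with earlier results of these data known. Genes named outside the members were the 10 with the largest fold of clone 2 over the higher other clone and the 5 nearest in pattern, each among genes averaging 10 CPM or more, and genes of the lists were named as examples. Some genes of the lists are not reported here.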

Additional observations from a re-analysis of the deposited data

How the results depend on the processing

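DESeq2 size factors and total counts left the number of expressed members at 37, the number 2-fold higher in clone 2 at 33 and the median log2 difference at 1.85. More than 3 counts in every clone gave 41 expressed members, and at least 10 counts gave 40. Requiring a mean of at least 10 CPM left 20 of 24 members 2-fold higher in clone 2, against 54 of 8366 genes outside the members. Trem2, Fcgr3, Fcer1g, Tyrobp, Cd14 and Cd53 passed that mean only through clone 2, with 5.11 to 8.74 CPM without it. The count is therefore no independent check on low values. The median difference was 2.07 with a pseudocount of 0.1 CPM, 1.71 without a filter and 1.64 without the 9 members whose counts were already known. Leaving out each clone in turn gave 37 to 39 expressed members and a summed share of 0.0722% to 0.190%. Leaving out clone 1 or 3 gave 33 to 35 members 2-fold higher in clone 2 and medians of 1.76 to 1.95. Clone 2 then had to exceed only 1 other clone, and the share over all genes was not computed. Clone 2 decided the share, which was 0.149% with it and 0.0722% without it, and the means of 33 of 45 members were over 1.5 times lower without it. The counts and medians of clone 2 have no value without that clone. Depth limits the genes under 10 counts. No paired analysis was possible because all samples belong to 1 group.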

Other observations

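Emcn, which encodes the endothelial sialomucin endomucin, moved opposite to the macrophage genes, with 307, 4 and 242 counts (12.4, 0.177 and 9.58 CPM) in clones 1, 2 and 3. Other genes of the endothelial list did not share this: Kdr had 163, 214 and 314 counts and Pecam1 had 6, 15 and 6. Gas6, a ligand of MERTK and AXL, was lowest in clone 2, with 219, 117 and 147 CPM, while Axl had 1227, 1651 and 1367. Fn1, the fibronectin gene, had 36125, 20546 and 25166 CPM. Syt13 had 196, 965 and 189 counts. Marco and Vsig4, scavenger and complement receptors of some tissue macrophages, had 18 and 12 counts in clone 2 and 1 count each in clones 1 and 3. These are values of 1 library for each clone, with no test.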
